A study of Mus musculus with 4 samples.

Results

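The genes described here are 34 genes of blood vessels in the spinal cord: 27 of endothelial cells and the blood-brain barrier, and 7 of mural cells, the pericytes and smooth muscle cells that wrap the vessels. They were taken by symbol from a fixed list of names, out of 22096 gene symbols in the deposited tables. All 34 symbols were found. Levels are FPKM, expression scaled to transcript length and to the size of the library, added up over all transcripts of a gene that are 300 bases or longer.

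Whole spinal cord was sampled at postnatal day 8 from mice of mixed strain background, with 2 libraries in each of 2 groups. Control animals (Ctrl) had the genotype Chd7f/+; Olig1-cre, with a floxed and an unfloxed allele of the chromatin remodeler gene Chd7. Conditional knockout animals (cKO) had Chd7f/f; Olig1-cre, with both alleles floxed. Both groups thus carried a floxed allele and Olig1-cre, which is active in cells of the oligodendrocyte lineage, and the control is heterozygous where Cre acts. The labels do not say whether the libraries of a group came from separate animals. The p-values rest on the spread between these libraries, mostly pooled over genes, and that spread may be technical.

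Endothelial cells line the capillaries of the cord and seal them with tight junctions, which keeps blood-borne molecules out and makes nutrients depend on transporters. Pericytes sit in the capillary wall, are recruited through platelet-derived growth factor B from the endothelium, and support the barrier. Growth and maturation of cord vessels in early life run through vascular endothelial growth factors (VEGF), angiopoietins and the ligands Wnt7a and Wnt7b.

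Of the 34 genes, 2 fell, 1 rose and 31 did not pass the test between genotypes. The monocarboxylate transporter gene Slc16a1 and the junction scaffold gene Tjp1 were the members that fell, and the amino acid transporter gene Slc7a5 was the one that rose. Passing means an adjusted p under 0.05 in limma, fitted to log2(FPKM + 1) of all 12913 genes with a mean of at least 1 FPKM. All 34 members reached that level. Among all genes tested 6.54% fell and 4.13% rose, against 5.88% and 2.94% of the members, so the members were called about as often as genes at large. Fold changes are on the log2(FPKM + 1) scale, which understates the change of low genes, and their errors are standard errors (SE) from the same fit.

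The sequences shown here are the 250 bases upstream of the RefSeq start of Slc16a1 and Tjp1, the 2 genes that fell, with Cldn5, the defining tight junction gene of brain endothelium, for comparison. They come from RefSeq on GRCm38.p6, at chr3:104638414-104638663 on the plus strand, chr7:65371245-65371494 on the minus strand and chr16:18776597-18776846 on the plus strand. Capitals mark the GC box (GGGCGG or, on the other strand, CCGCCC) and the E-box (CACGTG, which reads the same on both strands), and no marked matches overlap.
Slc16a1: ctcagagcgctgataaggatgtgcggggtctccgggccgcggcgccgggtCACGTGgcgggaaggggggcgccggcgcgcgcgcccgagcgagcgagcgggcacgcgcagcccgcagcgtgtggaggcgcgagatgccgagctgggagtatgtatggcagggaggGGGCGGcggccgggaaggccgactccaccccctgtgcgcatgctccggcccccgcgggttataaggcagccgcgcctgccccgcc
Tjp1: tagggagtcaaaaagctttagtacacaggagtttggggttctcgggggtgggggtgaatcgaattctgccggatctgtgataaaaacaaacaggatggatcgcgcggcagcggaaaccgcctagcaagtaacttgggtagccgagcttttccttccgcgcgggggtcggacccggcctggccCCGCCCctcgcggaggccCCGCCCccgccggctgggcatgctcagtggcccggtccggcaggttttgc
Cldn5: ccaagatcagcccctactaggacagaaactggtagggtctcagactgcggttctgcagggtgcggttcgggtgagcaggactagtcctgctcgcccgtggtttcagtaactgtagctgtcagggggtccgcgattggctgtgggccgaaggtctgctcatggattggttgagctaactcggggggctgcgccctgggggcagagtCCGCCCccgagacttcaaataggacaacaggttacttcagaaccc
The GC box occurred once in the Slc16a1 and Cldn5 sequences and 2 times in that of Tjp1, and the E-box once, in Slc16a1. Of all 32851 promoters of this length in the table, 32.7% held the GC box and 6.02% the E-box. Entries were matched for 24 members with 28 start sites, of which 11 (39.3%) held the GC box and 1 held the E-box. Slc16a1 and Tjp1, which fell, and Cldn5, which did not pass, all held the GC box.

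Before the results, the libraries were compared in depth and in markers of other cells. Relative depth, from the ratio of coverage to FPKM, ran from 1.0 in Ctrl 2 to 3.19 in cKO 2. Cord markers were present, with Hoxc8 between 21.4 and 27.9 FPKM, and the forebrain genes Emx1 and Tbr1 stayed under the level tested, whereas Neurod6 was between 2.74 and 5.72 FPKM and rose. All 8 myelinating oligodendrocyte markers fell (Mog, Mag and Cnp among them). Their summed level was 7313 and 7494 FPKM in Ctrl 1 and 2 and 2326 and 4035 FPKM in cKO 1 and 2. Of 12 meningeal fibroblast markers 9 fell (Dcn, Col1a1, Col1a2, Col3a1, Ptgds, Slc6a13, Ogn, Islr and Igf2), and Ctrl 1 stood apart with a sum of 292 FPKM, against 68.9, 42.1 and 45.5 FPKM in Ctrl 2, cKO 1 and cKO 2. Of 5 microglia markers 3 fell (Tmem119, P2ry12 and Cx3cr1). Of 6 astrocyte markers Slc1a3 rose and 5 did not pass. Gfap and Aqp4 had log2 fold changes of -0.74 and -0.51 (limma adjusted p = 0.0965 and 0.132). Those of Slc1a2, Aldh1l1 and Gjb6 were -0.22, 0.0004 and 0.23. Over the 6 astrocyte markers 3 changes were below 0 and 3 above, with a median of -0.11. Red cell markers stood apart in Ctrl 2, with Hba-a2 at 86.6 FPKM there and at most 2.04 FPKM elsewhere. All 6 blood genes tested passed (Hba-a2, Hbb-b1 and Alas2 lower, Hba-a1, S100a8 and S100a9 higher). For Hba-a2, Hbb-b1 and Alas2 the groups overlapped, and their calls rest on the high values of Ctrl 2. Perivascular macrophage and skeletal muscle markers summed to at most 4.72 and 3.13 FPKM. In whole tissue, fewer cells of a type and less RNA per cell cannot be told apart.

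The members covered a range of levels from about 1 to 60 FPKM, as the plot of FPKM by library shows. By the mean over the 4 libraries, 7 members lay between 1 and 3 FPKM, 13 between 3 and 10, 7 between 10 and 30, and 7 above that. Cldn5 had the highest mean (52.98 FPKM), followed by Mfsd2a, the lysolipid transporter of barrier endothelium, at 51.1 FPKM, and the ranges of the pair overlapped. Notch4, a Notch receptor of endothelium, had the lowest mean, 1.37 FPKM, below Acta2 at 1.62 and Vwf at 1.68 FPKM, and the ranges of Notch4 and Acta2 overlapped. By rank of level, Slc16a1 went from place 3 in control cords to place 7 in cKO cords, and Slc7a5 from place 5 to place 1.

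**Figure D1:**
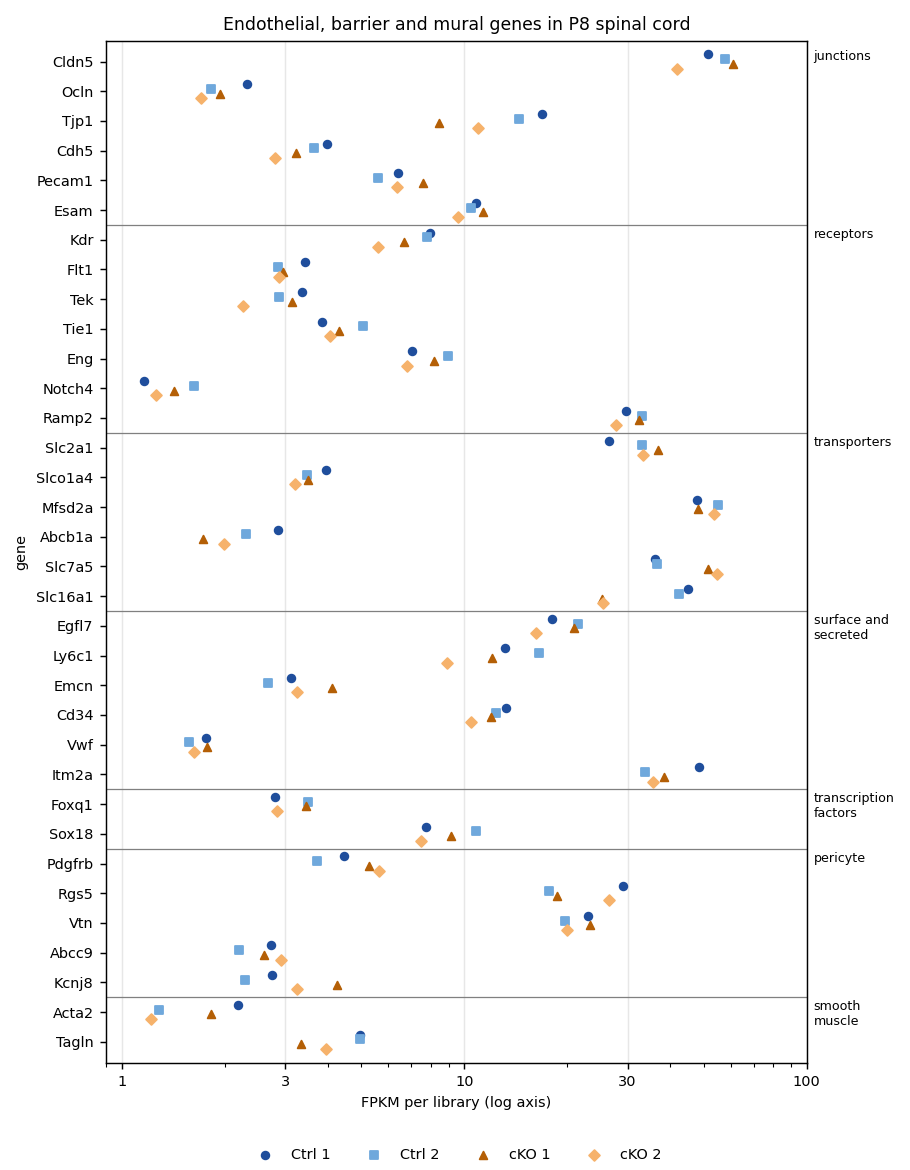
FPKM (log axis) of each of the 34 members in the 4 libraries, grouped by role, with blue for Ctrl and orange for cKO libraries. The cKO libraries sit below both controls for Slc16a1 and Tjp1 and above both for Slc7a5, while the symbols of Cldn5, Mfsd2a and Vtn are interleaved.

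Among the 6 junction genes, Tjp1 fell (16.7%, a coarse share in so short a list, beside 6.54% of all genes tested) and 5 did not pass. Tjp1 (chromosome 7, 72441051 to 72516130 on mm9) encodes ZO-1, a scaffold that ties tight junction proteins to actin in many cell types. It was measured at 16.9 and 14.5 FPKM in Ctrl 1 and 2, against 8.45 and 10.96 FPKM in cKO 1 and 2. Both cKO libraries lay below both controls. The log2 fold change was -0.65 ± 0.16 (SE, limma adjusted p = 0.00464, n = 2 libraries each), or 1.57-fold lower. Without cKO 1 the change was -0.48 and did not pass (limma adjusted p = 0.276).

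Cldn5, the claudin that seals the barrier, was at 51.5 and 57.8 FPKM in Ctrl 1 and 2, against 60.95 and 41.7 FPKM in cKO 1 and 2. The highest and the lowest value both came from cKO cords, so the groups overlapped fully (log2 fold change -0.11 ± 0.18, SE). Cdh5, the cadherin of endothelial adherens junctions, was at 3.97 and 3.64 FPKM in the Ctrl libraries, against 3.22 and 2.80 FPKM in cKO cords. Its groups did not overlap, and its change of -0.26 ± 0.15 (SE) did not pass (limma adjusted p = 0.300). Pecam1, an adhesion protein at endothelial cell contacts, was at 6.41 and 5.59 FPKM in the Ctrl libraries, against 7.57 and 6.37 FPKM in cKO cords, and the groups overlapped. Esam, an adhesion molecule of the same contacts, lay between 9.59 and 11.4 FPKM in all libraries. Ocln, the tight junction protein occludin, lay between 1.70 and 2.32 FPKM, also with overlap.

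Among the 6 transporter genes, 1 fell (16.7%), 1 rose (16.7%) and 4 did not pass, beside 6.54% and 4.13% of all genes tested. A list of 6 genes gives only coarse shares. Slc16a1 (chromosome 3, 104442591 to 104462385 on mm9) encodes MCT1, which carries lactate, pyruvate and ketone bodies, in endothelium and also in oligodendrocytes. It was measured at 45.1 and 42.5 FPKM in Ctrl 1 and 2, against 25.3 and 25.4 FPKM in cKO 1 and 2. The groups were well apart and the libraries within each group close. The log2 fold change was -0.77 ± 0.16 (SE, limma adjusted p = 0.00104, n = 2 each), or 1.70-fold lower, and it passed with each library left out in turn. The oligodendrocyte markers fell alongside, with a median of -1.25 over 8 of 8 genes, and their part in the fall of Slc16a1 and Tjp1 was not tested.

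Slc7a5 (chromosome 8, 124405046 to 124431586 on mm9) encodes LAT1, which carries large neutral amino acids and is enriched at the barrier. It was at 36.1 and 36.5 FPKM in the Ctrl libraries, against 51.4 and 54.9 FPKM in cKO cords. Both cKO libraries lay above both controls, with a gap wider than either group's spread. The log2 fold change was 0.54 ± 0.17 (SE, limma adjusted p = 0.0289, n = 2 each), or 1.45-fold higher. The call was lost whichever library was left out (limma adjusted p from 0.106 to 0.145) and with a replicate block (adjusted p = 0.0832), at changes between 0.49 and 0.58. Slc3a2, the heavy chain that LAT1 pairs with, was at 57.4 and 60.7 FPKM in the Ctrl libraries, against 63.7 and 62.4 FPKM in cKO cords, and did not pass (log2 fold change 0.09 ± 0.17, SE, limma adjusted p = 0.793).

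The other 4 transporters define the barrier or feed the brain. Slc2a1, the glucose transporter GLUT1, was at 26.4 and 33.0 FPKM in the Ctrl libraries, against 36.7 and 33.3 FPKM in cKO cords. Its cKO values lay above the controls by a margin small beside the spread of the controls (log2 fold change 0.24 ± 0.16, SE, limma adjusted p = 0.400). Mfsd2a was at 47.7 and 54.9 FPKM in the Ctrl libraries, against 48.1 and 53.6 FPKM in cKO cords, which is an overlap of the whole cKO range. Its 95% limma interval ran from -0.36 to 0.33. Abcb1a, the efflux pump P-glycoprotein, was at 2.85 and 2.30 FPKM in the Ctrl libraries, against 1.73 and 1.99 FPKM in cKO cords. Both cKO values were lower, and the change of -0.32 ± 0.16 (SE) did not pass (limma adjusted p = 0.201). Slco1a4, an organic anion transporter, was at 3.93 and 3.48 FPKM in the Ctrl libraries, against 3.50 and 3.20 FPKM in cKO cords, with overlap.

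None of the 7 receptor genes passed in limma, and 1 (Kdr) had an unadjusted p under 0.05, as did 24.2% of all genes tested. Kdr, the main signaling VEGF receptor of endothelium, was at 7.96 and 7.77 FPKM in the Ctrl libraries, against 6.66 and 5.59 FPKM in cKO cords. The controls were close together and both cKO values lay below them (log2 fold change -0.32 ± 0.15, SE, limma adjusted p = 0.184). Flt1, the VEGF receptor that also acts as a decoy, was at 3.43 and 2.85 FPKM in the Ctrl libraries, against 2.95 and 2.87 FPKM in cKO cords. Tek, the angiopoietin receptor Tie2, was at 3.36 and 2.87 FPKM in the Ctrl libraries, against 3.15 and 2.26 FPKM in cKO cords. Flt1 and Tek overlapped between groups.

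The remaining receptors were Tie1, a partner of Tie2, Eng, a coreceptor for transforming growth factor beta family ligands, Notch4, and Ramp2, a subunit of the adrenomedullin receptor. All 4 overlapped between groups, with log2 fold changes between -0.08 and -0.03. Ramp2 lay between 27.7 and 33.0 FPKM in all libraries. All 7 receptor changes were below 0, with a median of -0.08, beside -0.0028 over all genes tested. Relative to the control mean on the log2 scale, the median receptor lay at 0.01 in cKO 1 and at -0.17 in cKO 2. All 7 were below the control mean in cKO 2, whereas in cKO 1 only Kdr, Flt1 and Tie1 were.

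The 6 surface and secreted protein genes and the 2 transcription factor genes did not pass in limma, and Ly6c1 alone among them had an unadjusted p under 0.05. Ly6c1, a surface antigen of endothelium, was at 13.2 and 16.5 FPKM in the Ctrl libraries, against 12.04 and 8.93 FPKM in cKO cords. Its groups did not overlap and its adjusted p missed the threshold narrowly (log2 fold change -0.47 ± 0.16, SE, limma adjusted p = 0.0529). It passed in 4 of the 14 alternative settings, among them robust moderation (limma adjusted p = 0.0246), without Ctrl 1 and without cKO 1. Without Ctrl 2 and without cKO 2 the change shrank to -0.32 and -0.27 and did not pass (limma adjusted p = 0.290 and 0.450). Ly6c1 belongs to a family of near-identical genes that can share reads, so its level is uncertain. Emcn, a sialomucin of capillaries and veins, was at 3.12 and 2.67 FPKM in the Ctrl libraries, against 4.11 and 3.24 FPKM in cKO cords, higher in both, and the change did not pass (0.26 ± 0.16, SE, limma adjusted p = 0.321).

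Cd34, an adhesion protein of endothelium and progenitor cells, was at 13.3 and 12.4 FPKM in the Ctrl libraries, against 12.005 and 10.4 FPKM in cKO cords (log2 fold change -0.18 ± 0.15, SE, limma adjusted p = 0.510). Egfl7, a secreted endothelial protein, ran from 16.2 to 21.5 FPKM, and Vwf, the clotting factor stored in endothelium, from 1.57 to 1.77 FPKM, both with overlap. Itm2a, a membrane protein enriched in brain vessels, was at 48.6 FPKM in Ctrl 1 and between 33.8 and 38.4 FPKM in the other libraries. The forkhead factor Foxq1 had the change closest to 0 of the 34 genes (-0.0015), at 2.80 to 3.50 FPKM. Sox18, a SOX factor of vessel development, was at 7.71 and 10.8 FPKM in the Ctrl libraries, against 9.13 and 7.48 FPKM in cKO cords. Its groups overlapped as well.

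Among the 7 mural genes none passed in limma, and 3 had an unadjusted p under 0.05 (24.2% of all genes tested did), Pdgfrb and Kcnj8 higher and Tagln lower. Pdgfrb, the receptor through which pericytes are recruited, was at 4.44 and 3.70 FPKM in the Ctrl libraries, against 5.27 and 5.63 FPKM in cKO cords. Both cKO values lay above both controls (log2 fold change 0.35 ± 0.15, SE, limma adjusted p = 0.141). The change of Pdgfrb had the opposite sign in 1 of the 14 alternative settings. Kcnj8, the pore subunit of the vascular ATP-sensitive potassium channel, was at 2.75 and 2.29 FPKM in the Ctrl libraries, against 4.24 and 3.25 FPKM in cKO cords. It was also higher in both (0.43 ± 0.16, SE, limma adjusted p = 0.0741), and passed without Ctrl 1 (adjusted p = 0.0328). Without Ctrl 2 the change was 0.33 and without cKO 1 it was 0.28, and neither passed (limma adjusted p = 0.232 and 0.754).

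Abcc9 encodes the regulatory subunit of the same channel and lies beside Kcnj8 on chromosome 6 (Kcnj8 at 142513459 to 142519876 and Abcc9 at 142536382 to 142650794 on mm9). It was at 2.73 and 2.20 FPKM in the Ctrl libraries, against 2.60 and 2.92 FPKM in cKO cords, with overlap and a log2 fold change of 0.12 ± 0.16 (SE). Rgs5, a regulator of G protein signaling and pericyte marker, was at 29.0 and 17.7 FPKM in the Ctrl libraries, against 18.7 and 26.4 FPKM in cKO cords. Each group held 1 high and 1 low library, so its log2 fold change of -0.03 ± 0.18 (SE) is imprecise. That SE is mostly pooled over genes and does not measure the spread of Rgs5 alone. Vtn, the matrix protein vitronectin made by pericytes, was at 23.1 and 19.7 FPKM in the Ctrl libraries, against 23.3 and 19.96 FPKM in cKO cords, nearly the same pair of values in each group.

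The smooth muscle genes among the members were low. Acta2, smooth muscle actin, was at 2.18 and 1.28 FPKM in the Ctrl libraries, against 1.82 and 1.21 FPKM in cKO cords, the widest spread within a group of any member (1.70-fold between the controls). Tagln, a calponin-family actin binder, was at 4.95 and 4.97 FPKM in the Ctrl libraries, against 3.32 and 3.95 FPKM in cKO cords. Its groups were apart, and the change of -0.37 ± 0.15 (SE) did not pass (limma adjusted p = 0.120). Meningeal fibroblasts can express Tagln and Pdgfrb too, and the part of the meningeal markers given above in these values was not tested.

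**Figure D2:**
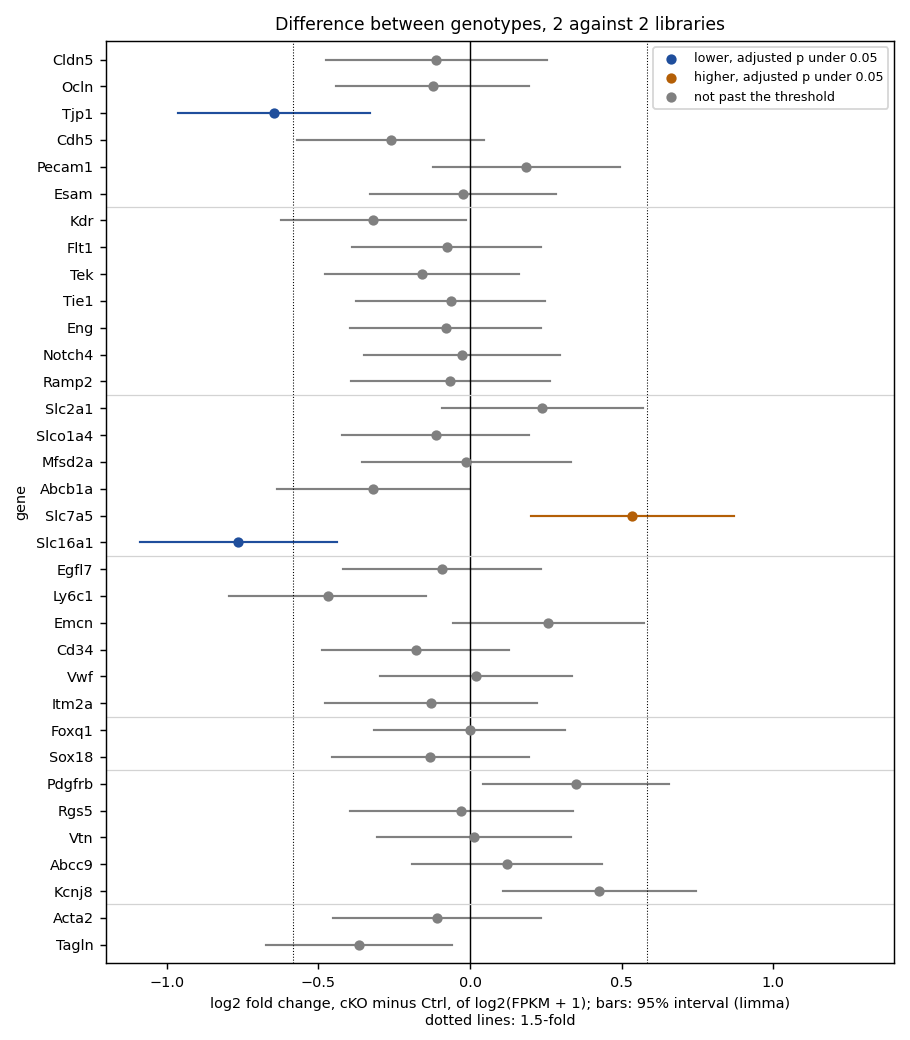
Log2 fold change (cKO minus Ctrl) of each member on the log2(FPKM + 1) scale with its 95% limma interval. Dotted lines mark 1.5-fold on that scale, which is wider in FPKM for low genes. Slc16a1 and Tjp1 (blue) are lower and Slc7a5 (orange) is higher, and the intervals of 25 of the 34 genes lie inside the dotted lines.

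For 25 of the 34 members (73.5%), the 95% limma interval lay within 1.5-fold in either direction on the log2(FPKM + 1) scale. It did so for 65.7% of all genes tested. The intervals of Cldn5 (-0.48 to 0.25), Pecam1 (-0.12 to 0.49) and Vtn (-0.31 to 0.33) were of this kind. Differences inside these intervals are neither shown nor excluded by the 2 libraries a group. Kdr, Abcb1a, Pdgfrb, Tagln, Ly6c1 and Kcnj8 were the uncalled members whose intervals reached beyond 1.5-fold on that scale, on 1 side each. Since the scale understates changes of low genes, their bounds in FPKM can be wider than 1.5-fold. The cKO libraries lay below both controls for 8 members (23.5%) and above both for 5 (14.7%), while 21 overlapped. Over all genes tested, groups did not overlap with cKO below for 29.3% and with cKO above for 24.3% (53.5% in either direction), so separation was not more frequent among the members than at large.

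The endothelial and mural genes were then set side by side. The median log2 fold change was -0.09 over the 27 endothelial members and 0.01 over the 7 mural members, beside -0.0028 over all genes tested. Of the 27 endothelial members 22 had a change below 0, against 3 of the 7 mural members and 50.5% of all genes. Relative to the control mean, the median endothelial member lay at -0.0026 in cKO 1 and at -0.18 in cKO 2. The median mural member lay at 0.06 in cKO 1 and 0.18 in cKO 2. The controls lay 0.02 above and below their mean for the endothelial members and 0.11 for the mural ones, with Ctrl 1 the higher in both.

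Among the members, cKO 2 was mostly the lower cKO library. Of the 34 members 25 were higher in cKO 1 than in cKO 2, with a median ratio of 1.14. The median over all genes was 0.03 in cKO 1 and -0.03 in cKO 2 on the same scale. Without cKO 2 the endothelial median was -0.0026, and without Ctrl 1 the mural median was 0.23. Summed FPKM of the endothelial members was 419 and 431 in the controls and 421 and 383 in cKO cords, and that of the mural members was 69.1 and 51.9 in the controls and 59.2 and 63.3 in cKO cords. Both sums overlapped between groups.

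**Figure D3:**
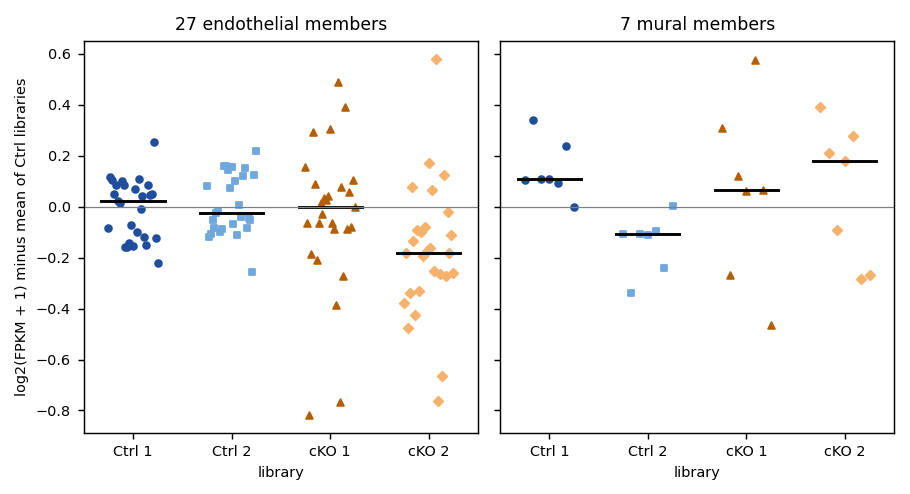
Log2(FPKM + 1) of each endothelial (left) and mural (right) member minus the mean of the 2 Ctrl libraries, with black bars at the median of each library. The endothelial median is near 0 in cKO 1 and at -0.18 in cKO 2, and the mural median is above 0 in both cKO libraries but overlaps Ctrl 1.

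The members' signaling partners were examined next, from lists of other vascular genes. Of 16 growth ligands tested, Apln and Cxcl12 fell (12.5%), Wnt7b rose (6.25%) and 13 did not pass, with a median of -0.07. Of 16 other receptors, Aplnr and Calcrl fell (12.5%), Nrp2 rose (6.25%) and 13 did not pass, with a median of -0.10. Among all genes tested 6.54% fell and 4.13% rose, and lists this short give only coarse shares. Apelin and its receptor were both lower. Apln was at 17.6 and 19.3 FPKM in the Ctrl libraries, against 10.2 and 9.45 FPKM in cKO cords (log2 fold change -0.84 ± 0.15, SE, limma adjusted p = 1.52e-04). Aplnr was at 25.8 and 27.3 FPKM in the Ctrl libraries, against 6.47 and 17.45 FPKM in cKO cords (-1.23 ± 0.21, SE, limma adjusted p = 8.57e-05). The cKO libraries differed widely in Aplnr, and its call was lost without cKO 1 (-0.58, adjusted p = 0.124) and with robust moderation (adjusted p = 0.419).

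The partners of the members' own receptors mostly did not pass. Vegfa, the main ligand of Kdr, was at 21.1 and 23.5 FPKM in the Ctrl libraries, against 17.4 and 20.6 FPKM in cKO cords (log2 fold change -0.23 ± 0.16, SE, limma adjusted p = 0.405). Vegfb, a ligand of Flt1, was at 40.3 and 61.8 FPKM in the Ctrl libraries, against 73.98 and 63.2 FPKM in cKO cords, where the controls differed more from each other than Ctrl 2 did from cKO 2. Angpt1, the activating ligand of Tek, and Pdgfb, the ligand of Pdgfrb, overlapped between groups. Calcrl, the receptor that Ramp2 assembles with, fell from 5.72 and 4.09 FPKM in the Ctrl libraries to 2.33 and 3.14 FPKM in cKO cords (-0.66 ± 0.16, SE, limma adjusted p = 0.00524), while Ramp2 did not pass. Its call was lost without Ctrl 1 and without cKO 1 (adjusted p = 0.0776 and 0.247).

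Wnt7b, a ligand that drives barrier formation in cord vessels, was at 7.34 and 9.77 FPKM in the Ctrl libraries, against 13.7 and 12.6 FPKM in cKO cords (log2 fold change 0.58 ± 0.16, SE, limma adjusted p = 0.0110). Both cKO libraries were higher, and the call was lost without Ctrl 1 or without cKO 1 (adjusted p = 0.188 and 0.184). Its relative Wnt7a was at 6.87 and 7.20 FPKM in the Ctrl libraries, against 6.32 and 5.57 FPKM in cKO cords, and did not pass (-0.21 ± 0.15, SE). Gpr124 and Reck, the pair through which endothelium receives these ligands, did not pass either. Nrp2, a VEGF and semaphorin coreceptor, was at 7.88 and 5.03 FPKM in the Ctrl libraries, against 10.1 and 9.44 FPKM in cKO cords, and its call was lost without Ctrl 2 and without cKO 1 (limma adjusted p = 0.366 and 0.204). Cxcl12, a chemokine made by vessels and meninges, was at 11.95 and 10.9 FPKM in the Ctrl libraries, against 8.57 and 5.81 FPKM in cKO cords, and its call was lost without cKO 2 (adjusted p = 0.255).

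**Figure D4:**
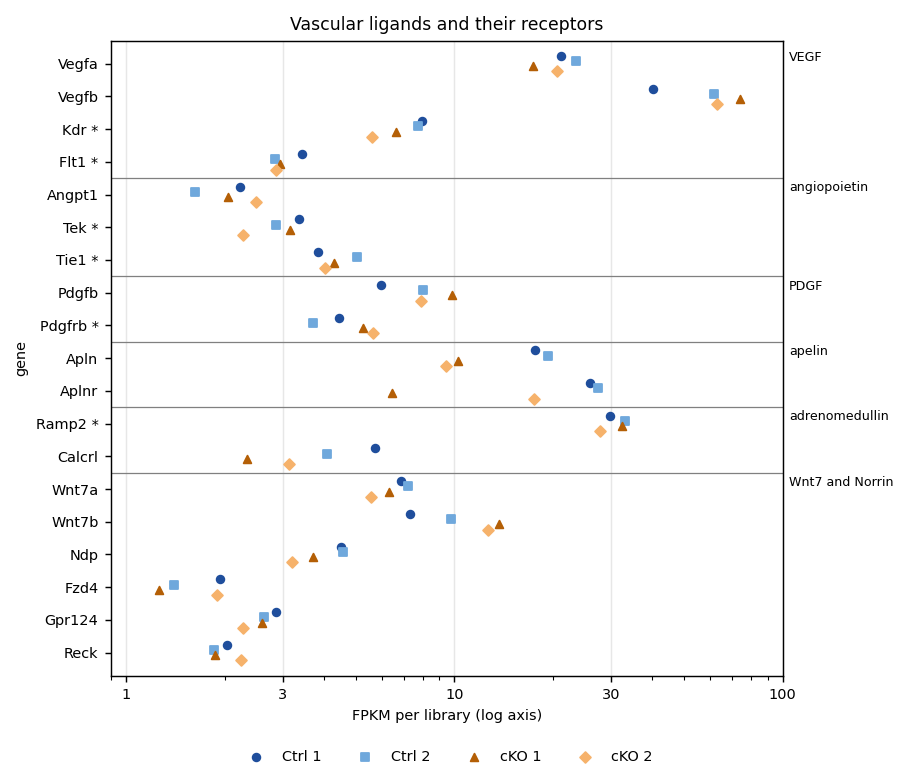
FPKM (log axis) in the 4 libraries of vascular ligands and receptors, grouped by signaling system, with members of the 34-gene set marked by an asterisk. Apln, Aplnr and Calcrl lie lower in both cKO libraries and Wnt7b higher, while Ramp2, Angpt1 and Reck are interleaved.

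Further endothelial genes were looked at as well. Of 23 other endothelial genes tested, Plvap rose (4.35%) and none fell, with a median of -0.13. Among all genes tested 4.13% rose and 6.54% fell. Plvap, a protein of fenestrated and immature endothelium that is low where the barrier is mature, was at 6.93 and 10.3 FPKM in the Ctrl libraries, against 14.9 and 10.8 FPKM in cKO cords. cKO 1 was the high library, and cKO 2 lay just above Ctrl 2 (log2 fold change 0.53 ± 0.17, SE, limma adjusted p = 0.0330). The call was lost without Ctrl 1 and without cKO 1 (adjusted p = 0.436 and 0.644). None of 23 other barrier junction and transport genes passed in limma, with a median of -0.18, and 5 had an unadjusted p under 0.05, all lower, beside 24.2% of all genes tested in either direction. The smallest p-values were those of Slco2b1 and Slc22a8, organic anion transporters (log2 fold changes -0.44 and -0.42, limma adjusted p = 0.0621 and 0.0717). The list's cKO values lay below both controls for 12 of its 23 genes (52.2%) and above both for 3 (13.0%), beside 29.3% and 24.3% of all genes tested.

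Of 12 other pericyte and smooth muscle genes tested, Mcam fell (8.33%, beside 6.54% of all genes tested). None rose, and the median was -0.08. Mcam (CD146), an adhesion protein of endothelium and pericytes, was at 32.7 and 32.6 FPKM in the Ctrl libraries, against 19.6 and 20.9 FPKM in cKO cords. The libraries within each group were close and the groups apart (log2 fold change -0.67 ± 0.16, SE, limma adjusted p = 0.00347), and the call was lost without cKO 1 (adjusted p = 0.0816). Of the contractile genes in this list, Myh11, Cnn1, Des, Actg2 and Lmod1 were under the level tested. Myl9, Tpm2 and Mylk had means of 10.2, 2.47 and 1.78 FPKM and did not pass. Among 11 basement membrane genes 1 fell (9.09%, beside 6.54% of all genes tested) and 10 did not pass. The gene that fell was Hspg2, the proteoglycan perlecan (3.67 and 3.64 FPKM in the controls, 2.28 and 2.52 FPKM in cKO cords, limma adjusted p = 0.0466). That call was lost whichever library was left out (adjusted p from 0.0664 to 0.459) and with a replicate block (adjusted p = 0.114).

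Of 12 hypoxia response genes, Ndrg1 and Ankrd37 fell (16.7%, beside 6.54% of all genes tested). None rose, and the median was -0.02. Ndrg1, a stress gene that myelinating cells also express, was at 23.7 and 24.3 FPKM in the Ctrl libraries, against 12.4 and 15.4 FPKM in cKO cords. The call was lost without cKO 1 (limma adjusted p = 0.0889). Ankrd37, a target of hypoxia-inducible factors, was at 5.09 and 5.62 FPKM in the Ctrl libraries, against 3.96 and 2.88 FPKM in cKO cords, and its call was lost without Ctrl 2 or cKO 2 (adjusted p = 0.0605 and 0.297).

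For 8 members the tables list several transcripts, and their shares were compared as a description, since transcripts of a gene share reads. The shares of Tjp1 were similar in all libraries, with the 6874-base transcript at 90.8% and 91.1% of the gene sum in the controls and 90.5% and 93.3% in cKO cords, so its lower level was in the transcript that carries most of it. The 2465-base transcript of Cd34 held 69.9% and 61.5% in the controls and 75.9% and 71.7% in cKO cords. For Pecam1 the 3305-base transcript held 99.7% in Ctrl 2, against 44.9%, 29.8% and 30.7% in Ctrl 1, cKO 1 and cKO 2. For Pdgfrb the 5410-base transcript held 99.97% in Ctrl 2, against 75.5%, 45.3% and 70.5% in the same order. Unlike the gene sum, that transcript overlapped between groups, at 3.35 and 3.70 FPKM in Ctrl 1 and 2, against 2.39 and 3.97 FPKM in cKO 1 and 2. Ctrl 2 stood apart in Abcc9 as well, where the 7362-base transcript held 62.4% there and nearly all elsewhere. Other libraries stood apart in other genes: the 3433-base transcript of Eng held 49.6% in cKO 2, against 84.3%, 92.7% and 74.1% in Ctrl 1, Ctrl 2 and cKO 1, and the 1461-base transcript of Emcn held 85.5% in cKO 1 and nearly all elsewhere. For these genes the gene sums, not the single transcripts, were tested.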

How the data were processed

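RNA sequencing of whole spinal cord gave 2 Ctrl and 2 cKO libraries, grouped and numbered by sample title. Per the submitters' processing notes, the tools were CASAVA, TopHat, Cufflinks and Cuffdiff, with mouse build mm9 and no versions or settings named. The deposited tables give FPKM per RefSeq transcript, per the file headers, and the deposited coverage signal beside it, used here only for relative depth (1.0 to 3.19). The sources used here give no read totals. Of 28107 rows, 315 were left out because some library lacked the status OK. FPKM was summed per gene symbol over rows of at least 300 bases.

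Gene sums with a mean of at least 1 FPKM were tested as log2(FPKM + 1) with limma 3.58.1 (R 4.3.3), comparing genotypes with variances moderated toward a trend on mean level. P-values were adjusted by Benjamini-Hochberg over all 12913 genes, at a threshold of 0.05. The spread rests on 36.3 prior and 2 residual degrees of freedom, so it is mostly pooled over genes. The script was tested on simulated data. The members and the gene lists were chosen with earlier results of these data known. All members are named, and of the other lists each gene past the threshold, or else up to 2 with the smallest p. Some marker genes are counted in their lists but not reported by name here. Other genes are named where a count or a partner of a member calls for it, after their values were seen. Coordinates are those of the tables on mm9, with starts raised by 1, except for the promoters. Alternatives covered pseudocount, filter, scaling, variance model, replicate block, rows summed and leaving out each library. Pericyte, smooth muscle and mural refer to the listed genes, not to sorted cells.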

Additional observations from a re-analysis of the deposited data

How the results depend on the processing

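The calls rest on the filter and on the way rows are summed, and the pooling of the spread differed between these settings. Prior degrees of freedom were 36.3 in the main fit. They were 4.11 with no filter on low values, 4.15 with all rows summed and 3.52 with the highest row of each gene. The change of Tjp1 was -0.65 with no filter and with all rows summed, as in the main fit. With no filter on low values, with all rows summed or with the highest row of each gene, no member fell or rose in limma, although 4, 5 and 3 members were lower and 2, 3 and 2 higher at an unadjusted p under 0.05. Genes called over the whole table went from 845 lower and 533 higher to 33 and 22, 30 and 23, and 17 and 14 under these 3 settings, and 0 of the other vascular genes passed instead of 8 lower and 3 higher. Under TPM scaling 1 member fell and 0 rose (402 and 198 over all genes, 3 and 0 of the other vascular genes). Under median-of-ratios scaling 1 of the other vascular genes rose, and the calls of Plvap, Nrp2, Hspg2 and Ankrd37 were lost. The fold changes of Slc16a1, Tjp1 and Slc7a5 kept their direction under all 14 settings, and they passed in 11, 9 and 5 of them. Of the members that did not pass, 18 changed sign at least once.

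The replicate numbers are not shown to pair the libraries: deviations from the group means correlated at -0.24. With a replicate block, 0 members rose (2 at an unadjusted p under 0.05) and 351 of all genes did. With crossed numbers, added after the data were seen, 2 members and 943 genes rose.

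Leaving out 1 library in turn, 2 to 3 members fell and 0 to 1 rose, 274 to 919 genes fell and 111 to 557 rose, and 3 to 8 of the other vascular genes fell and 1 to 4 rose. The lowest counts over all genes came without cKO 1. Members with cKO below both or the remaining control numbered 8 to 18 and those above 6 to 12, since fewer libraries separate more easily. The endothelial median ran from -0.18 to -0.0026 and the mural median from -0.093 to 0.23. A lone library in a group was assumed to vary like the other genotype. With 2 libraries a group and Ctrl 2 at the lowest depth, members near 1 FPKM are the least precise.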
